A study of Homo sapiens with 4 samples.

Results

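The NR2F1 locus was taken as the window from 92300000 to 93500000 of chromosome 5 (hg19). Its members were all filtered loops, and all pairs of an anchor with itself, that had an anchor midpoint in the window. A loop is a pair of DNA segments (anchors) found ligated together, counted in paired-end tags (PETs), and the filtered tables hold loops spanning 5 kb to 2 Mb between midpoints. There were 28 such loops of 62104 in SW620, 3 of 74401 in LS513, 1 of 40696 in HCT116 and 0 of 7024 in SW480. There were 9 same-anchor pairs of 22139 in SW620, 4 of 21099 in LS513, 4 of 20977 in HCT116 and 0 of 8572 in SW480. The window had been chosen on its loop PETs, which were high in SW620, so the loop and same-anchor values below describe that choice and carry no test.

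The data were H3K27ac HiChIP, in which nuclei are fixed, DNA is cut and ligated, and the fragments carrying histone H3 acetylated at lysine 27, a mark of active promoters and enhancers, are pulled down. All 4 lines were untreated colorectal cancer cell lines purchased from ATCC, named HCT116, LS513, SW480 and SW620, with 1 library each. SW480 came from a primary tumour and SW620 from a lymph node metastasis of the same patient. A single library per line gives no spread between replicates, so the intervals below are exact 95% intervals of counting error only, and PETs carried no molecular identifiers.

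NR2F1 (also called COUP-TFI) is an orphan nuclear receptor, a transcription factor that binds DNA as a dimer and often represses its targets. It is best known for patterning the developing brain, and in cancer it has been linked to the dormancy of disseminated tumour cells. NR2F1-AS1 is a long noncoding RNA that starts close to NR2F1 and is transcribed in the opposite direction. In the RefSeq gene order (GRCh38.p14) the nearest protein-coding gene on the NR2F1-AS1 side was ARRDC3, an arrestin family member, and 11 long noncoding RNAs (NR2F1-AS1 among them) and 5 pseudogenes started between ARRDC3 and NR2F1. No hg19 gene annotation was used, so no anchor other than the one over the NR2F1 start was given a gene. That start was taken near 92.919 Mb.

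Promoter sequences are shown because an acetylated anchor covered the NR2F1 start in 3 of the 4 libraries. Both are the 250 bases before a RefSeq start (GRCh38.p14), written 5′ to 3′ along the gene's own strand. The first lies at chr5:93582972-93583221 (plus strand), before the first of 2 NR2F1 starts in the table. The second lies at chr5:93581220-93581469 (minus strand), before the NR2F1-AS1 start that is nearest upstream, 2003 bases from that of NR2F1. These positions are in GRCh38.p14 and were not converted to hg19. Capitals mark matches to any of the motifs named after them.
NR2F1: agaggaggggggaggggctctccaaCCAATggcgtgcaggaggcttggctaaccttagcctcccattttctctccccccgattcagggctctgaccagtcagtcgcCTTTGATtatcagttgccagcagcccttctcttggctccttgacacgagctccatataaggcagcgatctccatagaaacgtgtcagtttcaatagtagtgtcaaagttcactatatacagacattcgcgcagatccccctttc
NR2F1-AS1: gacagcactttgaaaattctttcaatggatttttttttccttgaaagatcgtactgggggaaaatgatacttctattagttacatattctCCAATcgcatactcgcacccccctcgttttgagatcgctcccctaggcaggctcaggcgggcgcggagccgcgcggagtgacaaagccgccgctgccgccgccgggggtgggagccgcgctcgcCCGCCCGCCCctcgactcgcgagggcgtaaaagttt
The motifs searched on both strands were AGGTCA (a nuclear receptor site), GGGCGG (SP factors), CCAAT (NF-Y), TATAAA (a core promoter box), TGACTCA (AP-1), CTTTGAT (TCF and LEF factors, which act at the end of the WNT pathway) and CACCTG (E-box of ZEB and SNAI factors). The NR2F1 promoter held CCAAT from 225 to 221 bases before the start and CTTTGAT from 144 to 138 bases before it. Of 35116 RefSeq promoter windows of this length, 32.0% held CCAAT and 2.26% held CTTTGAT. The NR2F1-AS1 promoter held CCAAT once and a pair of GGGCGG matches on the other strand that overlap each other, a motif held by 42.6% of promoter windows. The remaining motifs did not match in these windows, which says only that those letters are not there. The NR2F1 promoter had a GC content of 52.4% and 8 CpG, and the NR2F1-AS1 promoter shown 57.2% and 25 CpG. Medians over all promoter windows were 58.0% and 11 CpG. Other NR2F1-AS1 starts, not shown, had windows of 64.8%, 67.2%, 74.0% and 68.4% GC, and the other NR2F1 start 29.2%. CACCTG matched before the NR2F1-AS1 starts at 93570825 and 93579858.

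Depth differed strongly between the libraries. Filtered loops held 222113 PETs in LS513, 152421 in SW620, 81579 in HCT116 and 13885 in SW480, and same-anchor pairs held 1386645, 844521, 863012 and 130508 in the same order. Rates are therefore given as normalised loop PETs (per 1000000 filtered PETs of the library) and normalised same-anchor PETs (per 1000000 same-anchor PETs of the library). The floor of 3 counts, used for a fold where a library had 0, was 216 normalised loop PETs in SW480, 36.8 in HCT116, 19.7 in SW620 and 13.5 in LS513. The exact 95% interval of the 0 PETs of SW480 in the window reached 266 normalised loop PETs. The tables count only PETs between the anchors listed for a library, so a place with no listed anchor cannot hold a PET there. HCT116 and LS513 had the same 4 anchors in the window, at identical coordinates, SW620 had 10 and SW480 had none. How anchors were called is not known, so those of HCT116 and LS513 may not be separate detections. The anchors in the window covered 22.1 kb in HCT116 and in LS513 and 51.9 kb in SW620.

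Loops at the locus were seen mainly in SW620. The window held 107 loop PETs in SW620, 5 in LS513, 1 in HCT116 and 0 in SW480. This was 702 normalised loop PETs in SW620 (575 to 848), 22.5 in LS513 (7.31 to 52.5) and 12.3 in HCT116 (0.310 to 68.3). The SW620 interval, of counting error only, lay above those of LS513 and HCT116, in a window chosen for its high loop PETs in SW620. SW620 stood at 31.2 times LS513 (interval 13.0 to 98.0) and at 57.3 times HCT116 (10.1 to 2283). Against SW480 it was at least 3.25-fold higher with the floor of 3 counts (interval from 2.60). Relative to the loop PETs of the flanking windows of the same length, the ratio to LS513 was 1.78 (0.741 to 5.60), below the fold of 4 used for a call. Those flanks held 12 PETs in SW620, 10 of them in a loop of a wide anchor at the upstream edge, against 1 in LS513. The interval took these flank counts as fixed, so it leaves out their counting error and is too narrow. SW480 bounds the difference loosely, since at the rate of SW620 it would have held 9.75 PETs and it had no anchor in the window.

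**Figure D1:**
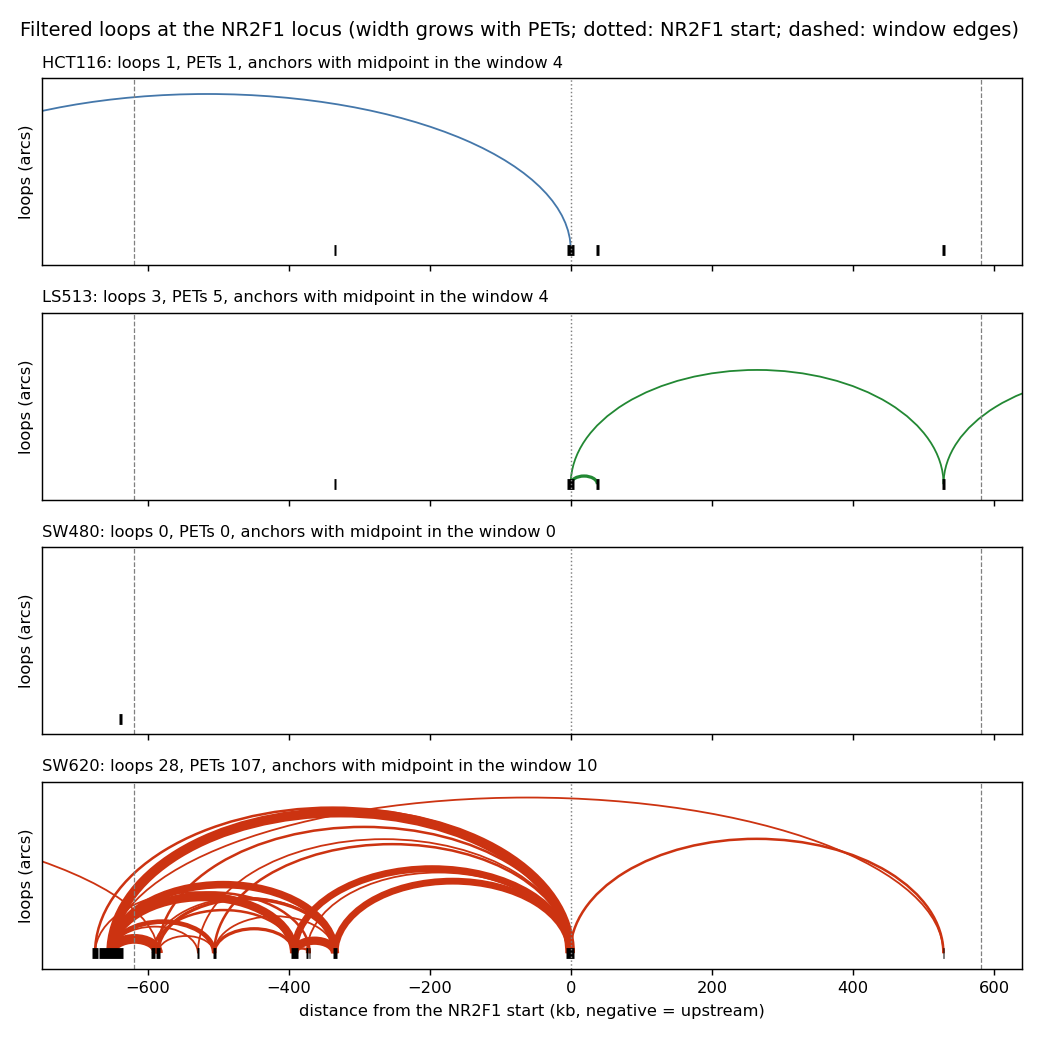
Filtered loops at the NR2F1 locus in each line, drawn as arcs between anchor midpoints (x axis, distance in kb from the NR2F1 start, negative values upstream; the vertical axis has no unit, and arcs are taller for longer loops, up to a common cap). Black bars are anchors, the dotted line is the NR2F1 start and dashed lines are the window edges; SW620 has 28 loops, nearly all upstream of the start, and LS513 has 3, HCT116 1 and SW480 0.

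Windows of the same length (1.2 Mb) tiled over chromosomes 1 to 22 and X give the background. SW620 was at least 4 times LS513, with at least 10 PETs in SW620, in 163 of 1902 windows (8.57%), at least 4 times HCT116 in 130 of 1868 (6.96%) and at least 4 times SW480 in 186 of 1805 (10.3%). The NR2F1 window passed this fold against LS513 and HCT116, and not against SW480, where the floor limited it. In 8 of 1939 windows (0.413%) SW620 passed it against each of the other 3. The window was not among the richest of SW620 itself, since 24.2% of windows held as many or more loop PETs there. In HCT116 88.4% of windows, and in LS513 80.9%, held as many as the NR2F1 window or more, and 41.1% of windows had 0 PETs in SW480.

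**Figure D2:**
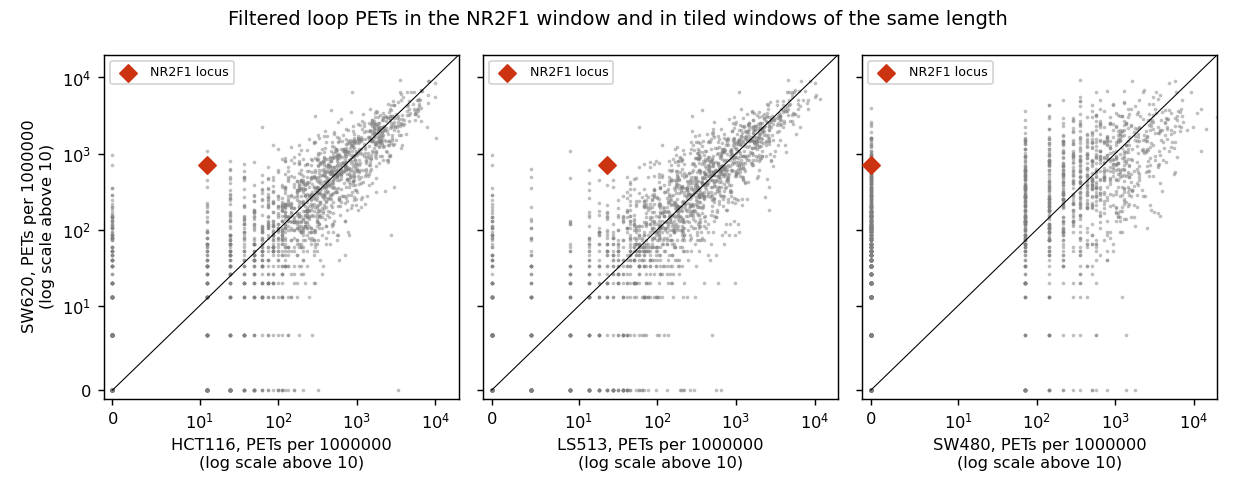
Normalised loop PETs (per 1000000 filtered PETs) of SW620 (y axis) against HCT116, LS513 and SW480 (x axes), linear up to 10 and logarithmic above, for tiled windows of the locus length (grey points) and the NR2F1 window (red diamond); the line marks equal rates. The NR2F1 window, at 702 in SW620, lies far above the line against HCT116 (12.3) and LS513 (22.5) and at 0 for SW480, where many other windows also lie.

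The NR2F1 start anchor was acetylated in HCT116 and LS513 too. This anchor ran from 92912429 to 92923459 in SW620 (11.0 kb) and from 92914124 to 92923459 in HCT116 and LS513 (9.34 kb). It held 370 same-anchor PETs in SW620, 142 in LS513 and 142 in HCT116, while SW480 had no anchor there. In HCT116 5.17% of all anchors held as many same-anchor PETs or more, in LS513 11.5% and in SW620 0.831%. By raw count the start anchor was thus well covered in each of these 3 libraries. These ranks were not matched on anchor length. The normalised same-anchor PETs of the start anchor were 438 in SW620, 165 in HCT116 and 102 in LS513. SW620 was thus at 2.66 times HCT116 (2.19 to 3.25) and 4.28 times LS513 (3.52 to 5.23). Per kb of the anchor these ratios were 2.25 (1.85 to 2.75) and 3.62 (2.98 to 4.43). The background at SW620 anchors overlapping one of the other library was a same-anchor ratio of at least 4 at 4.0% of them for HCT116 and 5.20% for LS513. The NR2F1 start anchor passed this fold against LS513 only.

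Loops from the start anchor differed more than its same-anchor PETs. It held 38 loop PETs in SW620 (249 normalised), 4 in LS513 (18.0 normalised) and 1 in HCT116 (12.3 normalised). SW620 was at 13.8 times LS513 (4.98 to 53.4) and at 20.3 times HCT116 (3.44 to 824). Loop PETs at overlapping anchors reached a ratio of 4 at 5.12% of SW620 anchors for LS513 and 4.49% for HCT116, and the NR2F1 start anchor was past it in both. Against SW480, with 0 PETs, it was at least 1.15-fold higher by the floor, but the interval reached down to 0.894, so no difference from SW480 was detectable for this anchor at that depth.

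**Figure D3:**
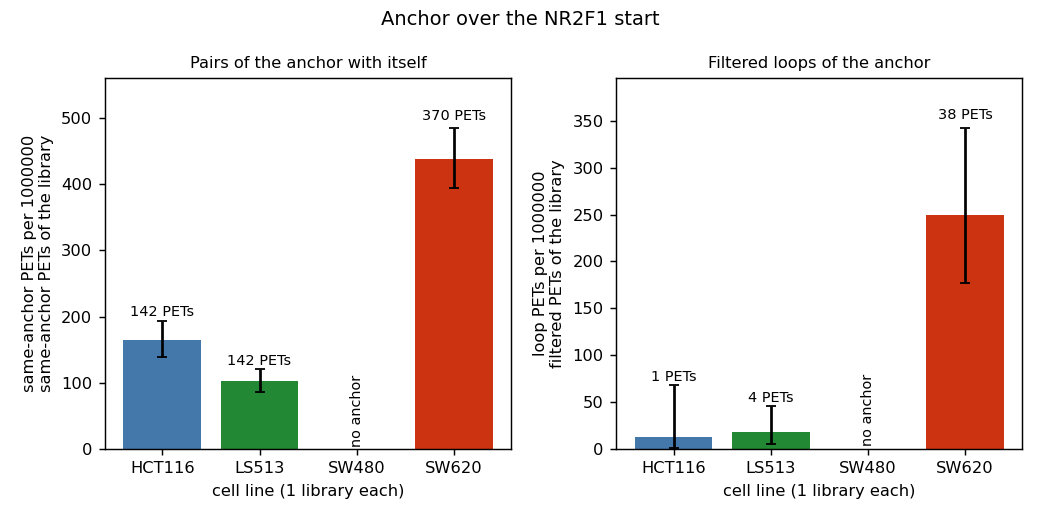
The anchor over the NR2F1 start in each line (x axis), as normalised same-anchor PETs (left, per 1000000 same-anchor PETs) and normalised loop PETs (right, per 1000000 filtered PETs); bars are the single library's value and error bars the exact 95% Poisson interval. Same-anchor PETs are 438, 165 and 102 in SW620, HCT116 and LS513, while loop PETs are 249, 12.3 and 18.0, and SW480 has no anchor there.

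Set against its own same-anchor PETs, the start anchor had few loops in HCT116 and LS513. It held 0.704 loop PETs per 100 same-anchor PETs in HCT116, where the median of the 2032 anchors with at least 100 same-anchor PETs was 13.1, and 0.935% of those anchors were as low or lower. In LS513 it held 2.82, against a median of 21.7 over 3834 anchors, with 3.55% as low or lower. In SW620 it held 10.3, against a median of 22.3 over 2047 anchors, with 18.4% as low or lower. The start anchor was therefore below the median in all 3 libraries, and nearest to it in SW620. The SW620 quotient was 14.6 times that of HCT116 (2.46 to 591) and 3.65 times that of LS513 (1.31 to 14.1). These intervals took the same-anchor PETs as fixed and leave out their counting error. A library's share of loop PETs enters this quotient, which is why each library's own median is given.

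**Figure D4:**
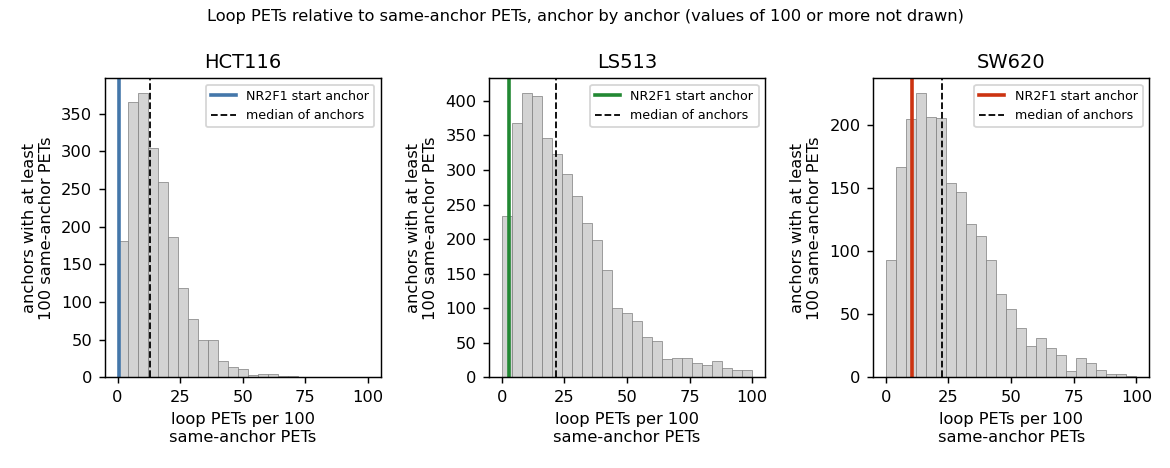
Loop PETs per 100 same-anchor PETs (x axis) for anchors with at least 100 same-anchor PETs in HCT116, LS513 and SW620 (y axis, number of anchors; values of 100 or more are not drawn). The coloured line is the NR2F1 start anchor and the dashed line the median of the anchors; the NR2F1 line is at 0.704, 2.82 and 10.3 against medians of 13.1, 21.7 and 22.3.

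Loops outside SW620 were few, and 1 of them had a partner that SW620 shared. In LS513 the start anchor was joined by 3 PETs to an anchor from 92954347 to 92958757, 37.8 kb away downstream, with an authors' FDR of 0.899. It was joined by 1 PET to an anchor from 93444606 to 93449770, 528 kb away on the same side, at the place of a SW620 anchor that was joined to the start anchor too. That downstream anchor was joined by 1 PET to a place beyond the window. In HCT116 the only loop was 1 PET between the start anchor and 91886919 to 91889518, 1031 kb upstream. None of these loops had an authors' FDR under 0.01, whereas 16 of the 28 loops of SW620 did, and those held 92 of its 107 PETs. Over all filtered loops the share under that FDR was 17.2% in SW620, 18.2% in LS513 and 12.8% in HCT116, so that 0 of 3 and 0 of 1 loops say little.

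In SW620 the start anchor was joined mainly to places upstream. Of its 9 loops, 8 with 36 PETs reached upstream and 1 with 2 PETs reached downstream, to 93445820 to 93448091, with an authors' FDR of 0.00021. Spans ran from 333 to 673 kb, and 7 of the 9 loops had an authors' FDR under 0.01, against 17.2% of all filtered loops of SW620. That share was not matched on span, and the window was chosen for its loop PETs. At the locus a loop of 2 PETs over 504 kb had an FDR of 0.000197, and a loop of 3 PETs over 6.61 kb had 0.757. The largest joined the start anchor by 12 PETs (78.7 normalised) to a wide anchor from 92250877 to 92284000, whose midpoint lay 652 kb upstream. Of the 2262 SW620 loops within 10% of its span of 651 kb, 2 held as many PETs, itself included. The next joined the start anchor by 8 PETs each (52.5 normalised) to 92521751 to 92531785, 391 kb away, and to 92581815 to 92587591, 333 kb away. As many PETs or more were held by 20 of 2899 loops (0.690%) and 27 of 3040 loops (0.888%) of like span. The authors' FDR of these 3 loops was deposited as 0. Their comparisons with loops of like span did not match anchor length or same-anchor PETs. These loops were also the largest of the start anchor, in a window chosen for its high loop PETs in SW620. Small shares therefore follow in part from the choice and are no test. The wide anchor was 33.1 kb long with 235 same-anchor PETs, and the start anchor 11.0 kb long with 370. The other upstream partners gave 1 or 2 PETs each.

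The upstream anchors were also joined to each other. Loops that did not touch the start anchor held 69 of the 107 PETs (64.5%), and 68 of these lay wholly upstream of it. The wide anchor was joined by 12 PETs to 92331059 to 92336483 (66.3 kb, FDR 1.3e-05), by 10 PETs to 92521751 to 92531785 (259 kb) and by 9 PETs to 92581815 to 92587591 (317 kb). The last 2 of these anchors were joined to each other by 10 PETs over 57.9 kb (FDR 0.00038). Among loops of like span in SW620, 3.62% held as many PETs as the first of these 4, 0.640% as the second, 0.814% as the third and 5.86% as the fourth. These loops too were named for their many PETs in the chosen window, so these shares are no test. The 5 anchors with most loop PETs (the wide anchor, the start anchor and the 3 anchors just named) formed 9 of their 10 possible pairs. These pairs held 74 PETs, or 69.2% of those at the locus. Because these anchors were picked by their loop PETs, a high share follows in part from the choice. The same count was not made in other windows. The pair with 0 PETs was that of the anchors 585 and 392 kb upstream, 193 kb apart.

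**Figure D5:**
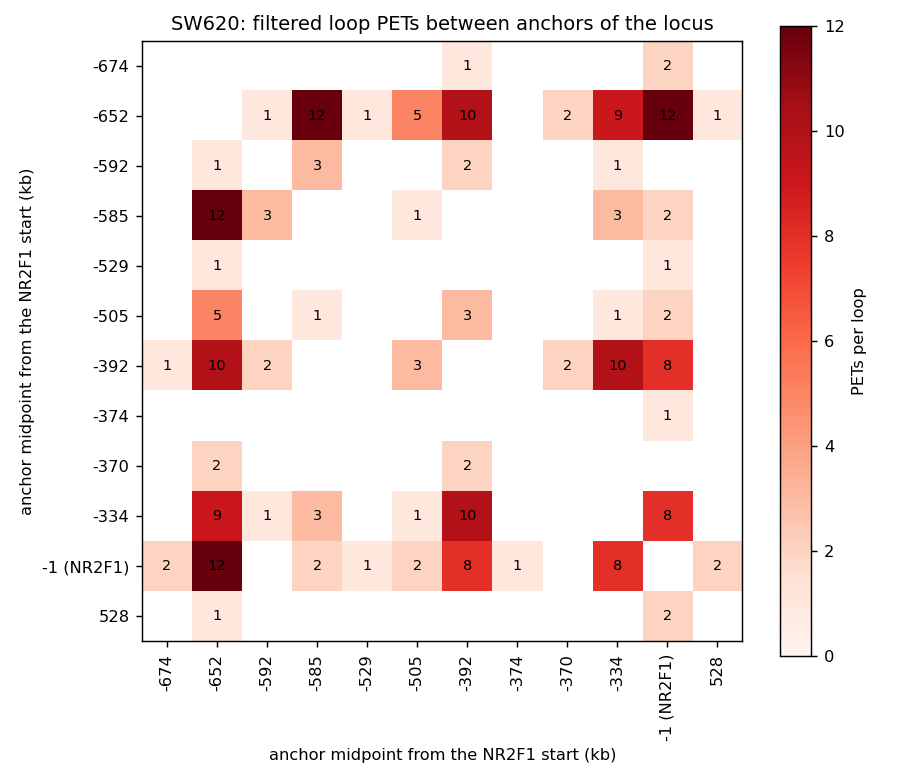
Filtered loop PETs in SW620 between anchors of the locus (both axes, anchor midpoint in kb from the NR2F1 start; colour and number, PETs per loop; an empty square means that no loop was listed). Rows of the anchors at -652, -392, -334 and -1 kb (the NR2F1 start) hold the loops of 8 to 12 PETs, with 1 more at 12 PETs between -652 and -585 kb; 1 loop to a place farther upstream is not drawn.

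Same-anchor and loop PETs were unequally spread over the upstream anchors. The wide anchor held 235 same-anchor PETs and 64 loop PETs in SW620, or 27.2 loop PETs per 100 same-anchor PETs, close to the median of 22.3. The anchors 392 and 334 kb upstream held 28 and 19 same-anchor PETs in SW620 and 36 and 32 loop PETs. The anchor 585 kb upstream held 33 and 22, and that 505 kb upstream 20 and 12. Each of the 4 anchors at 392, 334, 585 and 505 kb was thus above 50 loop PETs per 100 same-anchor PETs, where the start anchor was at 10.3. All 4 held fewer than the 100 same-anchor PETs required for the median, so they have no background for this quotient. The remaining 4 anchors of the window upstream of the start held 1 to 5 same-anchor PETs and 1 to 7 loop PETs each. Their quotients were high too, from 100 to 400 loop PETs per 100 same-anchor PETs, so a high quotient was not particular to the 4 anchors above. The anchor 528 kb downstream held 0 same-anchor PETs and 3 loop PETs. Anchors 2.02 to 11.0 kb long made up the window in SW620.

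Only 3 places in the window held an anchor in HCT116, LS513 and SW620 alike, the start anchor and those 334 kb upstream and 528 kb downstream. The anchors of HCT116 and LS513 had identical coordinates there, so they may not be separate detections. The anchor 334 kb upstream held 5 same-anchor PETs in HCT116 (5.79 normalised), 2 in LS513 (1.44) and 19 in SW620 (22.5). Its pair with the start anchor held 8 loop PETs in SW620 and 0 in both others, although both anchors were present there. By the floor of 3 counts SW620 was at least 3.89-fold higher than LS513 (interval from 2.49). Against HCT116 the same floor gave 1.43, with an interval from 0.914, so no difference from HCT116 was detectable for this pair at that depth. The start anchor and the downstream anchor were joined by 2 PETs in SW620, 1 in LS513 and 0 in HCT116, too few for a fold. For the other upstream anchors HCT116 and LS513 had no anchor to count, so a lack of loops and a lack of anchors cannot be told apart there.

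Same-anchor PETs over the whole window were 479 in SW620, 152 in LS513, 149 in HCT116 and 0 in SW480, and 370 of those of SW620 lay on the start anchor. Normalised, they were 567 in SW620 (518 to 620), 173 in HCT116 (146 to 203) and 110 in LS513 (92.9 to 128). The 3 intervals did not overlap, but they cover counting error only and test no difference between lines. SW620 was at 3.29 times HCT116 (2.73 to 3.98), at 5.17 times LS513 (4.30 to 6.25) and at least 24.7-fold higher than SW480, which at the rate of SW620 would have held 74.0 same-anchor PETs. Among tiled windows SW620 was at least 4 times HCT116 in 6.75%, LS513 in 7.11% and SW480 in 12.3%, and all 3 at once in 0.532%. The NR2F1 window passed that fold against LS513 and, with no SW480 anchor to count, against SW480. Per kb of anchor in the window SW620 was at 1.40 times HCT116 (1.16 to 1.69) and 2.20 times LS513 (1.83 to 2.66), since it had more anchor length. SW480 had 0 same-anchor PETs in 20.5% of windows.

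The edge of the window cut through the upstream group. The wide anchor of SW620, with its midpoint just outside, held 235 same-anchor PETs and 64 loop PETs in all, of which 9 loops with 53 PETs (49.5% of the locus) counted as members through their other anchor. Just outside as well lay an anchor from 92240136 to 92249153 with 14 same-anchor PETs, joined to the wide anchor by 10 PETs. Just inside the edge lay an anchor from 92324607 to 92329706 with 5 same-anchor PETs and that from 92331059 to 92336483 with 33. SW480 had an anchor from 92278032 to 92282518, inside the extent of the wide anchor of SW620, with 9 same-anchor PETs (69.0 normalised) and 0 loop PETs. HCT116 and LS513 had no anchor at that place. No loop or same-anchor pair of any library had an anchor midpoint within 100 kb beyond the downstream edge.

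Ligations of the locus to other chromosomes, which the choice of the window did not use, were scattered. They numbered 60 PETs in 59 pairs with 18 chromosomes in SW620, 20 PETs in LS513 and 8 in HCT116, and no pair held more than 2 PETs. The start anchor held 32 of them in SW620, 12 in LS513 and 5 in HCT116. Per 1000000 interchromosomal PETs SW620 was at 3.14 times LS513 (1.58 to 6.70) and 3.47 times HCT116 (1.34 to 11.4) for this anchor. Pairs over 2 Mb on chromosome 5 held 17 PETs in SW620, 7 in LS513 and 2 in HCT116, each in pairs of 1 PET. For the start anchor the same-anchor ratios were 4.28 and 2.66 and the loop ratios 13.8 and 20.3. The intervals of the interchromosomal ratios overlapped those of both, so which they lie nearer to cannot be told.

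Of the filtered PETs of each library, chromosome 5 held 3.57% in SW620, 4.07% in LS513, 2.99% in HCT116 and 4.91% in SW480. Per filtered PETs of chromosome 5 the window in SW620 was at 35.5 times LS513 and 48.0 times HCT116. The part of copy number in the difference was not tested.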

How the data were processed

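H3K27ac HiChIP was analysed in 4 libraries, 1 per cell line. HiC-Pro and hg19 (GRCh37) are named in the submitters' processing notes. How anchors and loops were called is not given in the sources used here. Without headers, the deposited tables hold whole-number counts of PETs per pair of anchors. A further deposited column holds a number from 0 to 1 per loop, read here as an adjusted p-value (FDR) of the authors. Starts were printed 1-based, reading the files as BED-like. Window, NR2F1 start position and members were chosen with earlier results of these data known. Ratios used exact conditional (Clopper-Pearson) intervals at 95% and levels exact Poisson intervals. Where loop PETs were set against flank or same-anchor PETs, the latter were taken as fixed. A count of 0 was set to 3 counts for a fold, and no fold was given where both counts were 3 or fewer. A fold at this floor is written as at least that value, but the lower limit of its interval can lie below it. Calls used a fold of 4 with at least 10 PETs in SW620, and tiled windows overlapping the locus were left out. The call and the interval were checked on simulated Poisson counts, which hold no variation between libraries beyond counting. The intervals of folds at the floor were not checked in this way. Loops of like span lay within 10% of a loop's span and were not matched on anchor length or same-anchor PETs. Named were the 5 loops with most PETs per library, the start anchor, the 5 anchors with most loop PETs and the 3 windows with the most similar shares. Further SW620 loops, and anchors at the window edge, were named after their values were seen. Promoter sequences and gene order came from RefSeq (GRCh38.p14), and both NR2F1 and NR2F1-AS1 matched by symbol. The software was scipy 1.17.1, pandas 2.3.3 and numpy 2.4.6 under Python 3.11.15, with figures by matplotlib 3.10.9.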

Additional observations from a re-analysis of the deposited data

How the results depend on the processing

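SW620 was the higher library in every fold under every setting that gave one, with 1 exception among the folds at the floor against SW480. With loops of at least 2 PETs the fold at the floor for the start anchor against SW480 was 0.986. The value in the text, 1.15, had not shown a difference either (interval from 0.894). Of 43 values under other settings, 32 stayed within the interval of the value in the text. Relative to loop PETs in the flanking windows of the same length, where SW620 held 12 PETs, LS513 1 and HCT116 2, SW620 was at 1.78 times LS513 (0.741 to 5.60) and 17.8 times HCT116. The interval took the flank counts as fixed and is too narrow. With both anchors in the window, SW620 was at least 8.92-fold higher than HCT116 (interval from 6.99) and at least 1.52-fold higher than SW480 (from 1.19). With an authors' FDR under 0.01 the fold at the floor against SW480 was 2.20 (interval from 1.75), and with loops at the NR2F1 start 1.15 (from 0.894). Per kb of anchor, same-anchor PETs were at 1.40 times HCT116 and 2.20 times LS513. Chosen after seeing the data, a further setting kept only anchors overlapping in HCT116, LS513 and SW620. From 10 PETs in SW620 it gave at least 1.78-fold against HCT116 (interval from 1.20) and 14.6-fold against LS513. Extending the window by 100 kb upstream, also chosen later, gave same-anchor ratios of 4.99 to HCT116, 7.86 to LS513 and 12.5 to SW480. No fold per kb could be given against SW480, which had no anchor in the window. No paired analysis was possible because each line had 1 library. The depth of SW480 limits each comparison with it.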

Other observations

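The windows most like the NR2F1 window in their shares of normalised loop PETs over the 4 libraries, among 752 tiled windows with at least 50 PETs in SW620, lay on other chromosomes. The nearest was 105.6 to 106.8 Mb of chromosome 8, with 53 PETs in SW620, 1 in LS513 and 0 in HCT116 and SW480 (distance 0.0421). Next at an equal distance of 0.0586 were 51.6 to 52.8 Mb of chromosome 16, with 109 PETs in SW620, and 15.6 to 16.8 Mb of chromosome 9, with 53, each with 0 in the other 3 libraries. The NR2F1 window differed from these in having 1 PET in HCT116 and 5 in LS513. The distance is that of 4 shares, each from a single library, and says nothing of shared control.

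For same-anchor PETs the nearest of 1460 windows was 128.4 to 129.6 Mb of chromosome 10, with 57 PETs in SW620, 24 in HCT116, 17 in LS513 and 0 in SW480. For the neighbouring windows raw PETs are given, not normalised for depth. Same-anchor totals ran from 130508 PETs in SW480 to 1386645 in LS513, so these raw values do not rank the libraries. The window of the same length upstream held 249 same-anchor PETs in SW620, 9 in SW480, 11 in HCT116 and 3 in LS513. Of those in SW620, 235 lay on the wide anchor at the edge of the NR2F1 window. The window downstream held 8 in SW620, 59 in SW480, 42 in HCT116 and 71 in LS513. Loop PETs in the downstream window were 5 in SW480 and 1 in SW620.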
